A study of Mus musculus with 7 samples.

Results

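Proteasome genes were followed across 7 mouse heart libraries, namely every gene of the deposited table whose symbol is Psma, Psmb, Psmc, Psmd, Psme, Psmf or Psmg followed by a number. The rule gave 48 of the 23420 genes in the table. They comprise 5 interferon-inducible members (Psmb8, Psmb9, Psmb10, Psme1 and Psme2), the 3 constitutive catalytic subunits whose places the first 3 take (Psmb5, Psmb6 and Psmb7), and 40 others. The hearts came from a genetic mouse model of myocarditis, the inflammation of heart muscle that can follow immune checkpoint inhibitor (ICI) therapy. Both groups lacked Pdcd1, which encodes the checkpoint receptor PD-1, in the germline. The 4 control mice were Ctla4+/+;Pdcd1-/-, and the 3 ICI-myocarditis mice were Ctla4+/-;Pdcd1-/-, with 1 copy of the gene for the checkpoint receptor CTLA-4. All mice were 3 to 6 weeks old, none received a treatment, and no group with an intact Pdcd1 was used here. Total RNA from flash-frozen cardiac ventricle (the tissue label reads whole heart) was sequenced from stranded, paired-end libraries.

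The proteasome is the barrel-shaped protease that degrades ubiquitin-tagged proteins in the cytosol and nucleus. Its core particle has outer rings of alpha subunits and inner rings of beta subunits, and the beta subunits encoded by Psmb5, Psmb6 and Psmb7 carry the cutting sites. Interferon-gamma induces replacement subunits encoded by Psmb8, Psmb9 and Psmb10, which form the immunoproteasome, and the cap PA28, encoded by Psme1 and Psme2. These changes alter the peptides available to major histocompatibility complex (MHC) class I, and immune cells carry immunoproteasome subunits without prior inflammation.

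The libraries held 20931730 to 39037176 reads assigned to genes. Values are given as normalized counts, that is reads per gene divided by 1 size factor per library. Differences are log2 fold changes of ICI-myocarditis over control on log2(normalized count + 1), tested with limma over 15258 genes and called at a Benjamini-Hochberg adjusted p below 0.05. Ctla4 lay at 29.2 to 113.5 normalized counts in the controls and 250.7 to 372.9 in ICI-myocarditis, and Pdcd1 at 2.50 to 244.2 and 1096 to 1481. Control 2 held the highest control value of both genes. The table gives 1 value per gene, so these levels do not show which part of either gene was read and do not check the deletions. The cardiomyocyte markers Myh6, Tnnt2, Tnni3, Actn2, Ryr2, Pln, Actc1 and Ckm were read in all 7 libraries, which fits the tissue label. Control 2 stood apart from the other controls. On the first principal component of all tested genes, which held 68.6% of the variance, it lay at 2.25, between controls 1, 3 and 4 (-96.7 to -61.2) and the ICI-myocarditis hearts (58.9 to 105.0).

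All 5 inducible members were higher in the ICI-myocarditis hearts, whereas none of the 42 other tested members was called in either direction. Psmb8, Psmb9 and Psmb10 rose by log2 fold changes of 3.00, 2.95 and 2.22, and the cap genes Psme1 and Psme2 by 1.07 and 1.54. Over all genes tested, 15.7% were called, 11.7% as higher and 4.00% as lower, and the median log2 fold change was -0.02. The groups did not overlap for any of the 5 inducible members, which was so in this direction for 17.3% of all genes tested. The 5 members were also the only proteasome genes with an adjusted p below 0.05 in the authors' deposited table, in which 20.2% of genes passed. That table gave log2 fold changes of 2.73 for Psmb8, 2.69 for Psmb9, 2.09 for Psmb10, 1.08 for Psme1 and 1.54 for Psme2.

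Psmb8 encodes the replacement for the chymotrypsin-like subunit of Psmb5. It had 677.5, 2962, 940.2 and 713.2 normalized counts in controls 1 to 4, against 11326, 7627 and 7400.0 in ICI-myocarditis hearts 1 to 3. The groups did not overlap, and control 2 lay 3.15-fold above the next control. The means were 1323 ± 1099 (SD, n = 4) and 8784 ± 2204 (SD, n = 3), and the log2 fold change of 3.00 had a standard error of 0.48, a 95% confidence interval of 1.92 to 4.07 and a limma adjusted p of 0.00504.

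Psmb9 encodes the replacement for the caspase-like subunit of Psmb6. It was read at 225.8, 1296, 509.2 and 406.6 normalized counts in controls 1 to 4, against 5079, 3708 and 3023 in ICI-myocarditis hearts 1 to 3. Control 2 was again the highest control, 2.55-fold above control 3, and the groups did not overlap. The log2 fold change was 2.95 with a standard error of 0.50 (95% interval 1.83 to 4.08, limma adjusted p = 0.00623).

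Psmb10 encodes the replacement for the trypsin-like subunit of Psmb7. Its normalized counts were 1317, 3671, 1385 and 1489 in controls 1 to 4, against 9891, 7793 and 7365 in ICI-myocarditis hearts 1 to 3. Controls 1, 3 and 4 lay close together, control 2 lay 2.47-fold above the highest of them, and every ICI-myocarditis heart lay above control 2. The log2 fold change was 2.22 with a standard error of 0.36 (95% interval 1.41 to 3.03, limma adjusted p = 0.00529). Psmb8, Psmb9 and Psmb10 were called in all 15 alternative analyses, with adjusted p of at most 0.0231, 0.0253 and 0.0241.

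The PA28 cap showed smaller changes. Psme1, which encodes PA28 alpha, had 2648, 3299, 3249 and 4550.0 normalized counts in controls 1 to 4 and 9295, 6985 and 5466 in ICI-myocarditis hearts 1 to 3. Control 4 rather than control 2 was the highest control, and the groups did not overlap. The log2 fold change was 1.07 with a standard error of 0.26 (95% interval 0.48 to 1.66, limma adjusted p = 0.0254). It missed the threshold without control 1 (0.95, adjusted p = 0.0727), without control 3 (1.05, adjusted p = 0.0773), without ICI-myocarditis 1 (0.87, adjusted p = 0.0853) and without ICI-myocarditis 2 (1.08, adjusted p = 0.0774).

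Psme2, which encodes PA28 beta, had 981.0, 2393, 1659 and 1984 normalized counts in controls 1 to 4 and 7487, 4178 and 3658 in ICI-myocarditis hearts 1 to 3. Heart 1 of the ICI-myocarditis group was the highest library for both cap genes, and the lowest ICI-myocarditis heart lay above control 2. The log2 fold change was 1.54 with a standard error of 0.35 (95% interval 0.75 to 2.33, limma adjusted p = 0.0182). It missed the threshold without control 3 (1.54, adjusted p = 0.0565) and without ICI-myocarditis 1 (1.23, adjusted p = 0.0580). A near copy of this gene, Psme2b, is annotated as protein coding, so reads may be shared between them and the Psme2 level is uncertain to that extent.

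**Figure D1:**
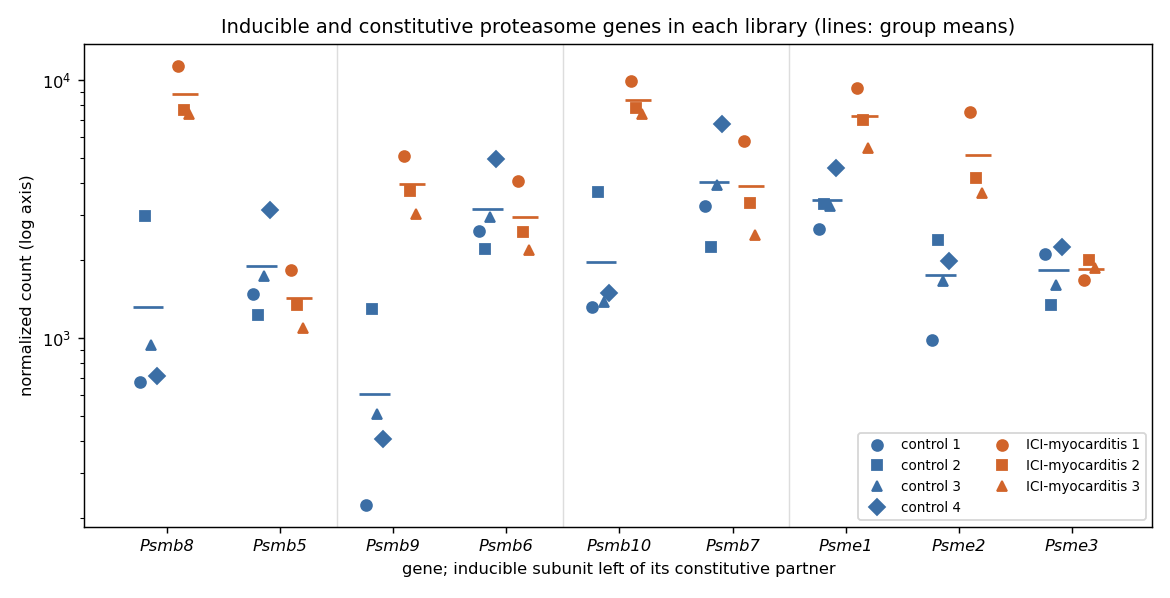
Normalized counts (log axis) of the 5 inducible members and of Psmb5, Psmb6, Psmb7 and Psme3 in each library; each point is 1 heart (control blue, ICI-myocarditis orange) and lines mark the group means. For Psmb8 the 3 ICI-myocarditis hearts sit between 7400.0 and 11326, above all 4 controls, of which control 2 (2962) is the highest, while the groups overlap for Psmb5, Psmb6, Psmb7 and Psme3.

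Between the groups, leukocyte markers moved in the same direction as the inducible members. All 12 listed markers (among them Ptprc, Cd3e, Cd8a, Cd68 and Itgam) were called higher, beside 11.7% of all genes tested. The markers had a median log2 fold change of 2.74. Their summed level was 10938 to 19426 normalized counts in the controls, with control 2 the highest, and 52410.0 to 79881 in ICI-myocarditis. The sum was highest in ICI-myocarditis heart 3, where each inducible member had its lowest value of that group. The sum weighs abundant markers such as Lyz2 most, which among controls was highest in control 4. Control 2 was the highest control for every listed marker but Lyz2 and Csf1r. There Cd3e was at 250.4 (6.26 to 20.2 in the other controls) and Ptprc at 2874 (482.9 to 1108). None of these markers was at 0 in all libraries. The part of leukocytes in the change of the inducible members was not tested. In whole-tissue RNA, more cells of a type and more RNA per cell cannot be told apart.

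The inducible catalytic genes lie in the genome as follows (GRCm38, GENCODE M21). Psmb8 spans chr17:34197721-34201454 on the plus strand and Psmb9 spans chr17:34181987-34187764 on the minus strand, within the MHC class II region beside Tap1 and Tap2, which encode the peptide transporter. Psmb10 spans chr8:105935735-105938444 on the minus strand. Psme1 (chr14:55578123-55581529, plus) and Psme2 (chr14:55587441-55591113, minus) are near neighbours of each other. The RefSeq start sites of Psmb9 and Tap1 lie 226 bases apart on opposite strands, and the annotated genes overlap. Psmb8, Psmb10 and Psme1 each overlap an annotated gene on the other strand. Whether strand was used in counting is not given in the sources used here, so reads from overlapping genes may not have been told apart.

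Of the 48 members, 40 matched an entry in the RefSeq promoter table (GRCm38.p6). Psma8, Psmb1, Psmb2, Psmb7, Psmc3, Psmd3, Psmd7 and Psmg2 had no entry. The 250 bases before the start site are printed here 5′ to 3′ on the gene's strand, for both immunoproteasome subunits on chromosome 17 and for the constitutive subunits whose places they take, since 1 gene of each pair was called and the other was not. They are Psmb8 (chr17:34197945-34198194, plus), Psmb5 (chr14:54617996-54618245, minus), Psmb9 (chr17:34187331-34187580, minus) and Psmb6 (chr11:70525107-70525356, plus). The RefSeq starts of Psmb8 and Psmb9 lie inside the GENCODE M21 spans given above, so these windows overlap the genes as that annotation draws them. Capitals mark letters that match a searched motif.
Psmb8: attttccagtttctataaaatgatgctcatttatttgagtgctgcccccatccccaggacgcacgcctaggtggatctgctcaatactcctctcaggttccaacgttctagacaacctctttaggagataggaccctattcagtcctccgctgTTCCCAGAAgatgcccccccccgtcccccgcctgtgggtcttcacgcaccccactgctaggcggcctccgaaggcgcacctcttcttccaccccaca
Psmb5: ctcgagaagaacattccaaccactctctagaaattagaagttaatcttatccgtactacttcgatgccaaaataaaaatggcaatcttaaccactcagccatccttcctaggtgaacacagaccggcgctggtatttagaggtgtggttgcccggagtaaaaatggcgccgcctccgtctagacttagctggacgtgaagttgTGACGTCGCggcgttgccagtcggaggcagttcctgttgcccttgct
Psmb9: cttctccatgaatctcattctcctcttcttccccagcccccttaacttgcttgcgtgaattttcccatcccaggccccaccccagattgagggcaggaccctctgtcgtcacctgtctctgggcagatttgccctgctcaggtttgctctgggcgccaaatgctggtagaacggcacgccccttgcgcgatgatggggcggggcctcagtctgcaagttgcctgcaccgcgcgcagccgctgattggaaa
Psmb6: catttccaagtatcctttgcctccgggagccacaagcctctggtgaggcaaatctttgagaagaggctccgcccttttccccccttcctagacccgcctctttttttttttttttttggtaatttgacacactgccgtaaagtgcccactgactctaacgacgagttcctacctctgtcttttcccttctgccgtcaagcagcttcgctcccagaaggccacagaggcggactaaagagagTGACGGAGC
Both strands were searched for 3 motifs. The first was the core of the interferon-stimulated response element, held by 2.98% of 32851 RefSeq windows of this length. The second was the gamma-activated site of interferon-gamma signalling (TTCNNNGAA), held by 7.02%, and the third the antioxidant response element (TGACNNNGC), held by 10.2%. The capitals in Psmb8 are a gamma-activated site match, and those in Psmb5 and Psmb6 are antioxidant response element matches. Psmb9 held none of the 3, nor did Psmb10, Psme1 and Psme2. Among the 35 other members with an entry, 3 held the first motif (Psmb3, Psmd4 and Psmd9), 1 the second (Psmg1) and 5 the third (Psmb5, Psmb6, Psmc6, Psmd12 and Psmd9). A match describes these letters in this window only.

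The constitutive catalytic genes were not called, and their groups overlapped. Psmb5 had 1484, 1231, 1745 and 3132 normalized counts in controls 1 to 4 and 1837, 1347 and 1098 in ICI-myocarditis hearts 1 to 3. Control 4 was the highest library, and the rest lay in 1 overlapping range. The log2 fold change was -0.35 with a standard error of 0.32 (95% interval -1.08 to 0.38, limma adjusted p = 0.521).

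Psmb6 had 2593, 2207, 2953 and 4921 normalized counts in controls 1 to 4 and 4041, 2586 and 2192 in ICI-myocarditis hearts 1 to 3. Its log2 fold change was -0.09 with a 95% interval of -0.80 to 0.63 (limma adjusted p = 0.886). Control 4 and ICI-myocarditis 1 were the highest libraries of their groups. Psmb7 had 3248, 2260.0, 3922 and 6717 normalized counts in controls 1 to 4 and 5819, 3343 and 2502 in ICI-myocarditis hearts 1 to 3. The same libraries were highest, and the log2 fold change was -0.03 with a 95% interval of -0.93 to 0.87 (limma adjusted p = 0.971). These intervals hold changes in either direction. The signs of the Psmb6 and Psmb7 values turned (0.07 and 0.13) when libraries were scaled by total reads, which moved the median of all genes by 0.16. Relative to that shift the values were -0.09 and -0.03, which returns the main values nearly by construction and does not decide between the scalings. Annotated pseudogenes of Psmb5, Psmb6 and Psmb7 could share reads with them.

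The ratio of each inducible subunit to its constitutive partner within a library does not depend on the scaling of libraries beyond the pseudocount. Psmb8 over Psmb5 was 0.457, 2.41, 0.539 and 0.228 in controls 1 to 4, against 6.17, 5.66 and 6.74 in ICI-myocarditis hearts 1 to 3. The ICI-myocarditis hearts lay close together and above all controls, among which control 2 was the highest. The mean log2 ratio was -0.72 ± 1.43 (SD, n = 4) in controls and 2.63 ± 0.13 (SD, n = 3) in ICI-myocarditis, a difference of 3.35 or 10.2-fold. The difference was 4.01 without control 2.

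Psmb9 over Psmb6 was 0.0871, 0.587, 0.172 and 0.0826 in controls 1 to 4, against 1.26, 1.43 and 1.38 in ICI-myocarditis hearts 1 to 3, a log2 difference of 3.04. Only the ICI-myocarditis libraries had a ratio above 1. The difference was 3.65 without control 2. Psmb10 over Psmb7 was 0.405, 1.62, 0.353 and 0.222 in controls 1 to 4, against 1.70, 2.33 and 2.94 in ICI-myocarditis hearts 1 to 3, a log2 difference of 2.25. Control 2 came close to the lowest ICI-myocarditis heart, and the difference was 2.84 without it.

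For the caps, Psme3, which encodes the nuclear PA28 gamma, served as the reference. Psme1 over Psme3 was 1.25, 2.46, 2.02 and 2.02 in controls 1 to 4, against 5.54, 3.48 and 2.93 in ICI-myocarditis hearts 1 to 3, a 2.04-fold difference of the mean log2 ratios. Psme2 over Psme3 was 0.465, 1.79, 1.03 and 0.881 in controls 1 to 4, against 4.46, 2.08 and 1.96 in ICI-myocarditis hearts 1 to 3, a 2.82-fold difference on the same scale. The groups did not overlap in any of the 5 ratios. Exact two-sided permutation tests over the 35 splits of 7 libraries gave p = 0.0286, the smallest p this design allows, for Psme1 over Psme3 and p = 0.0571 for the other 4 ratios. Adjusted over the 5 ratios the exact p was 0.0571 for each, so none passed 0.05.

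**Figure D2:**
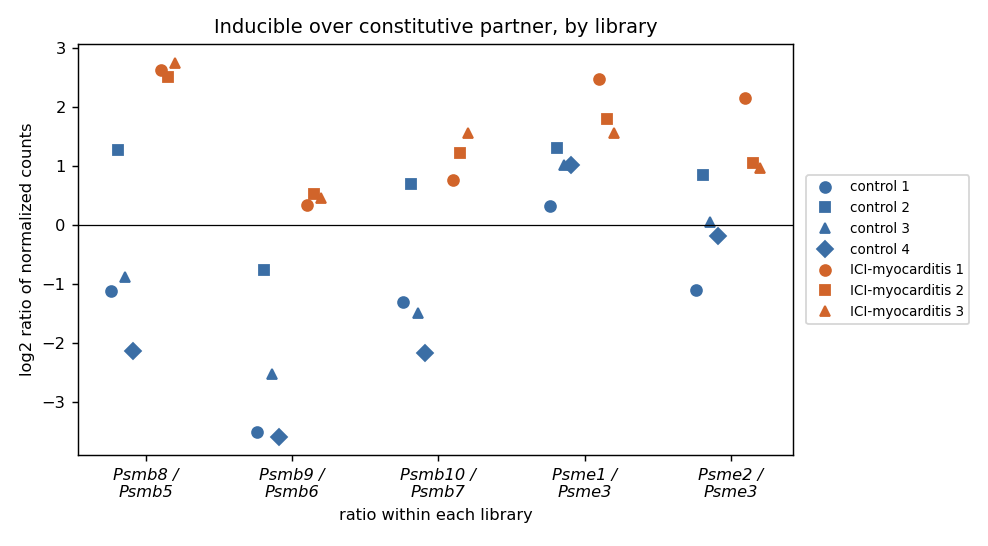
Ratios within each library (log2 axis) of Psmb8, Psmb9 and Psmb10 to their constitutive partners, and of Psme1 and Psme2 to the reference Psme3. Each point is 1 heart, with controls in blue and ICI-myocarditis in orange. In all 5 ratios the 3 ICI-myocarditis hearts lie above the 4 controls, and control 2 is the highest control.

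Dividing each normalized count by transcript length (kilobases of the principal GENCODE M21 transcript) allowed levels to be compared between genes. Per kilobase, the control mean of Psmb8 was 813 against 2111 for Psmb5, and the ICI-myocarditis means were 5396 and 1588. By these means the inducible partner was the lower of the pair in controls and the higher in ICI-myocarditis. Control 2 went against its group, since Psmb8 made up 57.1% of the pair there, against 11.2% to 22.9% in controls 1, 3 and 4. For Psmb10 and Psmb7 the control means per kilobase were 1499 and 3479.8 and the ICI-myocarditis means 6369 and 3351.5, and control 2 again differed, with Psmb10 at 59.0% of the pair against 16.4% to 26.4% in the other controls. Psmb9 stayed below Psmb6 in both, at 451 against 3971 in controls and 2912 against 3684 in ICI-myocarditis. In ICI-myocarditis this order rests on the lengths used (1352 bases for Psmb9 and 798 for Psmb6). Without the division Psmb9 was above Psmb6 in every ICI-myocarditis heart, and other transcript lengths were not tried. Of the summed level per kilobase of the 6 catalytic genes, the inducible 3 made up 17.1%, 47.8%, 18.2% and 10.8% in controls 1 to 4, against 60.1%, 63.7% and 66.9% in ICI-myocarditis hearts 1 to 3. Controls 1, 3 and 4 were at most at 18.2% in this measure, and control 2 stood between them and the ICI-myocarditis hearts.

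The structural subunits of the core particle were not called. The 7 alpha subunits Psma1 to Psma7, which form the outer rings and the gate, had log2 fold changes from 0.12 (Psma6, adjusted p = 0.880) to 0.73 (Psma5, adjusted p = 0.248), all above 0, with a median of 0.32. Of all 15258 genes tested, 7341 were above 0. Psma5 had 734.0, 1079, 1436 and 2052 normalized counts in controls 1 to 4 and 3452, 1688 and 1481 in ICI-myocarditis hearts 1 to 3, so its value rested mainly on ICI-myocarditis 1. The 4 beta subunits without a cutting site, Psmb1 to Psmb4, ranged from 0.01 (Psmb4, adjusted p = 0.984) to 0.30 (Psmb2, adjusted p = 0.497).

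The regulatory particle, which binds ubiquitin-tagged proteins, unfolds them and opens the core, was likewise not called. Its 6 ATPases, Psmc1 to Psmc6, lay between -0.11 (Psmc3, adjusted p = 0.859) and 0.10 (Psmc2, adjusted p = 0.846), with a median of 0.06. Its 11 non-ATPase subunits lay between -0.07 (the scaffold Psmd2, adjusted p = 0.887) and 0.45 (the deubiquitinase Psmd14, adjusted p = 0.364), with a median of 0.06. The interval of each ATPase and non-ATPase lay within -0.80 to 1.14.

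Assembly chaperones also gave no call. Those of the regulatory particle ranged from -0.18 (Psmd9, adjusted p = 0.552) to 0.16 (Psmd5, adjusted p = 0.652). Among the chaperones of the core particle, Psmg1 had the lowest value of all 42 members outside the inducible class, with a log2 fold change of -0.58 (95% interval -1.20 to 0.05, limma adjusted p = 0.200). Its normalized counts were 347.8, 302.2, 351.7 and 548.0 in controls 1 to 4, against 328.4, 259.4 and 189.5 in ICI-myocarditis hearts 1 to 3, and the groups overlapped. Psmg4 had the highest value of this class, 0.66 (adjusted p = 0.306), with 747.9 normalized counts in ICI-myocarditis 1 against 164.3 to 382.9 in the other 6 libraries.

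The other activators and the inhibitor were not called. Psme3 had 2111, 1338, 1608 and 2253 normalized counts in controls 1 to 4 and 1678, 2009 and 1864 in ICI-myocarditis hearts 1 to 3 (log2 fold change 0.04, 95% interval -0.45 to 0.54, limma adjusted p = 0.920). Its ICI-myocarditis hearts lay inside the control range. Psme4, which encodes the activator PA200, had 16617, 11687, 19505 and 24191 normalized counts in controls 1 to 4 and 16049, 18609 and 12228 in ICI-myocarditis hearts 1 to 3 (-0.18, 95% interval -0.88 to 0.53, limma adjusted p = 0.756). Per kilobase, the control means were 2773 for Psme4 and 686 for Psme3, so Psme4 was the more abundant of these activators.

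Psmf1, which encodes the inhibitor PI31, was the exception among the 42 in that its groups did not overlap. Its normalized counts were 633.2, 557.6, 624.2 and 638.1 in controls 1 to 4, against 683.5, 689.2 and 813.8 in ICI-myocarditis hearts 1 to 3. The log2 fold change was 0.25 (95% interval -0.14 to 0.63, limma adjusted p = 0.378). Groups failed to overlap for 28.6% of all genes tested, beside 1 of these 42 members and 6 of all 47 tested members. The 42 varied together between libraries (given below), and whether they differ from that share was not tested. Psmb11, the thymus-specific catalytic subunit, was read at 2.47 normalized counts in control 2, at 0.764 in ICI-myocarditis 3 and at 0 in the other 5 libraries, and was not tested. Psma8, the testis-enriched alpha subunit, had 7.40 to 21.3 normalized counts in controls and 9.93 to 23.2 in ICI-myocarditis (log2 fold change 0.23, adjusted p = 0.803).

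**Figure D3:**
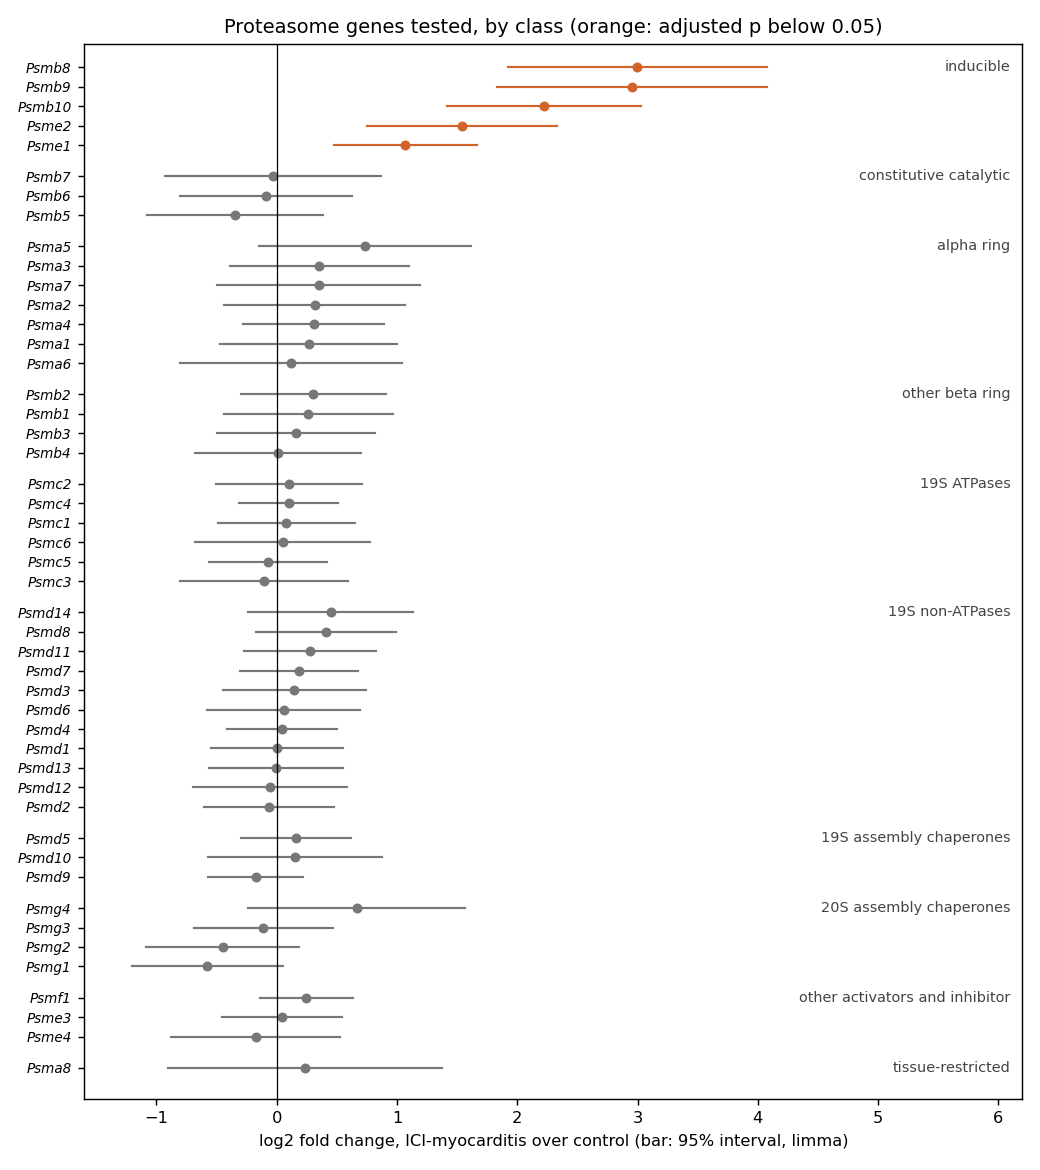
Log2 fold change (ICI-myocarditis over control, x axis) of the 47 tested members with 95% confidence intervals, grouped by role; orange marks members called at an adjusted p below 0.05. The 5 inducible members lie from 1.07 to 3.00 and the other 42 from -0.58 to 0.73.

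None of these 42 members was called in any of the 15 alternative analyses, and none had an unadjusted p below 0.05 in the limma fit. Of them, 29 had a log2 fold change above 0 and 13 below, beside 7341 and 7917 of all 15258 genes tested. The median of the 42 was 0.10 and their median standard error 0.28. Their 95% intervals together spanned -1.20 to 1.61, so some of them held changes of more than 1 log2 unit.

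The 42 members varied together between libraries of the same group. Control 4 was the highest control for 42 of the 42, against 35.1% of all genes tested, and control 2 was the lowest for 33 (78.6% against 30.9%). In ICI-myocarditis, heart 1 was the highest for 36 (85.7% against 34.0%). Taken as the median log2 deviation of the 42 from their own means, controls 1 to 4 lay at -0.19, -0.41, 0.05 and 0.46 and ICI-myocarditis hearts 1 to 3 at 0.32, -0.04 and -0.14. The libraries of each group thus spread more widely than the group means, which were -0.02 and 0.05, differed. The median deviation over all genes lay between -0.01 and 0.01 in every library, which division by a size factor per library tends to bring about. The members share their libraries, so these counts describe the 7 libraries. Summed cardiomyocyte markers were highest in control 4 (2259300.0) and lowest among controls in control 2 (1173400.0), but in ICI-myocarditis they were highest in heart 2 (1271400.0), not in heart 1 (990520.0). The part of cell composition in this pattern was not tested.

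**Figure D4:**
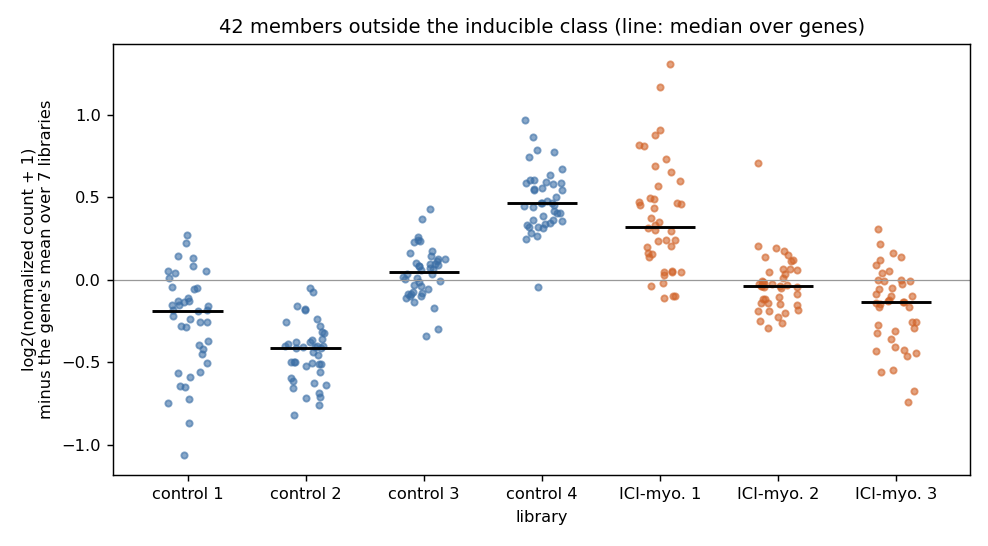
Deviation of each of the 42 members outside the inducible class from its own mean over the 7 libraries (log2 axis), by library, with a line at the median of the 42. The medians run from -0.41 in control 2 to 0.46 in control 4, and both groups spread across 0.

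Partners of the proteasome without a Psm symbol gave 0 of 6 calls. Pomp, the maturation factor needed to assemble new core particles, had 1565, 1538, 1942 and 2505 normalized counts in controls 1 to 4 and 3785, 2731 and 2887 in ICI-myocarditis hearts 1 to 3. The groups did not overlap, but its log2 fold change of 0.75 (standard error 0.23) did not pass the test (limma adjusted p = 0.0589). It passed in 3 of the 15 alternatives. Ecpas, a scaffold of the proteasome, stood at -0.49 (adjusted p = 0.227), and Adrm1, Sem1, Uchl5 and Usp14 stood between -0.43 and 0.10. Of the regulators of constitutive proteasome genes, 0 of 5 were called, among them Nfe2l1, the transcription factor of the proteasome recovery response (-0.30, adjusted p = 0.564). Among all genes tested 15.7% were called, and whether the partners and regulators differ from other genes was not tested.

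Of 7 interferon-gamma pathway genes and regulators of the inducible members, 4 were called higher and none lower, with a median log2 fold change of 2.29. Among all genes tested 11.7% were called higher and 4.00% lower. Ifng, which encodes interferon-gamma, rose by 5.96 (adjusted p = 0.00935). Its size depended on the analysis: 7.08 without control 2, 5.14 without control 4, 4.87 with a pseudocount of 5, 4.55 with edgeR and 4.57 with DESeq2. In control 2 Ifng had 55.5 normalized counts, against 0 to 4.47 in the other controls. Irf8 rose by 3.04 (adjusted p = 0.00504). Irf1 rose by 2.29 (adjusted p = 0.0123) and Nlrc5, the transactivator of MHC class I genes, by 3.41 (adjusted p = 0.0119). The Nlrc5 value was 4.13 without control 2, 2.72 with edgeR and 2.76 with DESeq2. Irf1 and Nlrc5 missed the threshold without ICI-myocarditis 3, at adjusted p of 0.0552 and 0.0510. Irf9 (0.76, adjusted p = 0.0621) and the receptor genes Ifngr1 (0.31) and Ifngr2 (-0.47) did not pass the test.

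In the peptide-loading list, 6 of 8 genes were called higher, beside 11.7% of all genes tested. They were led by Tap1, the neighbour of Psmb9, at 3.30 (adjusted p = 0.00492) and B2m at 2.63 (adjusted p = 0.00316). The sixth, Pdia3, was called in only 6 of 15 alternatives (0.69, adjusted p = 0.0470).

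The interferon-induced ubiquitin-like modifiers and their enzymes were called higher in 5 of 5 cases, beside 11.7% of all genes tested. Ubd, which encodes FAT10, a modifier that sends proteins directly to the proteasome, rose by 6.72 (adjusted p = 0.00897). Its value was 8.09 without control 2, 5.98 without control 4, 5.93 with a pseudocount of 5, 4.51 with edgeR and 4.53 with DESeq2. Isg15 rose by 2.33 (adjusted p = 0.00871) and its conjugating enzyme Ube2l6 by 1.90 (adjusted p = 0.00316). Usp18, which removes Isg15, rose by 1.97 (adjusted p = 0.0190; called in 11 of 15 alternatives), and the activating enzyme Uba7 by 1.68 (adjusted p = 0.0383; called in 7 of 15).

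Of the 12 ubiquitin genes and shuttle factors 0 were called, beside 15.7% of all genes tested, and whether they differ from other genes was not tested. They had log2 fold changes between -0.43 (Ubqln4) and 0.40 (Ubb) and a median of -0.02. None had an unadjusted limma p below 0.05, and Ubb was called in 1 of 15 alternatives, total-read scaling. The 8 muscle ubiquitin ligases, which tag muscle proteins for degradation, gave no call either. All 8 had values below 0, as had 7917 of the 15258 genes tested. The ligases had a median of -0.43 and ran from -0.78 for Fbxo40 (adjusted p = 0.0917) to -0.13 for Mdm2. Trim63, which encodes MuRF1, stood at -0.67 (adjusted p = 0.214) and Fbxo32, which encodes atrogin-1, at -0.45 (adjusted p = 0.472). Cardiomyocyte markers were also below 0 in 8 of 8 cases, with a median of -0.86 and 1 called lower (Ckm). Their summed level was 1173400.0 to 2259300.0 normalized counts in controls and 730140.0 to 1271400.0 in ICI-myocarditis. Their part in the ligase values was not tested.

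**Figure D5:**
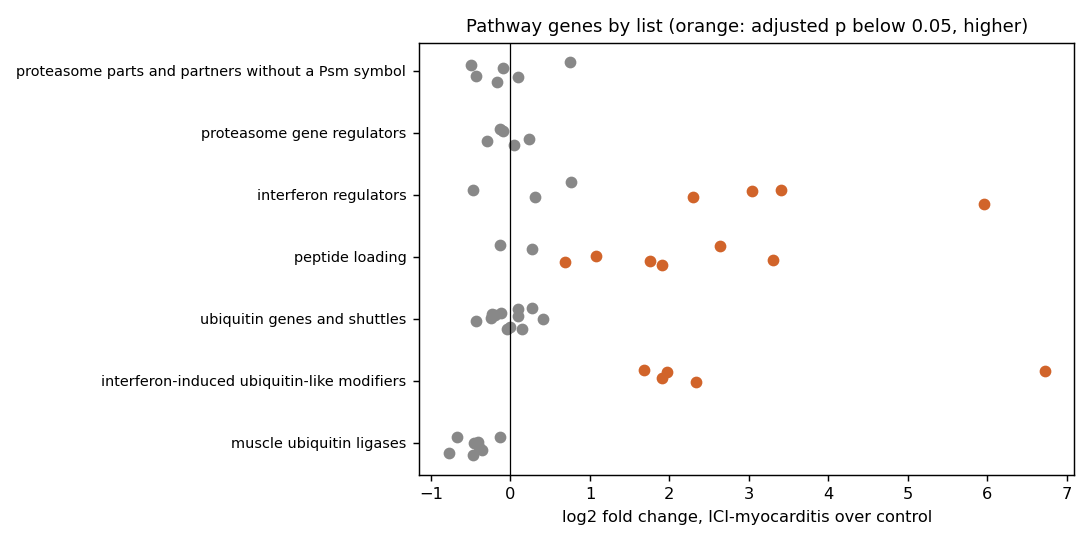
Log2 fold change (ICI-myocarditis over control) of each gene in the pathway lists, 1 point per gene, with called genes in orange and the others in grey. The interferon regulators, peptide-loading genes and ubiquitin-like modifiers have medians of 2.29, 1.42 and 1.97, whereas the ubiquitin genes lie around -0.02 and the muscle ligases around -0.43.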

How the data were processed

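One table with the 7 libraries as columns was used. Each library column, as deposited, holds a normalized signal: whole counts per gene that were divided by a size factor of that library, which the steps between low values show. Per the file headers it also holds the authors' log2 fold change, its test statistic (a score), p-value and adjusted p-value. Reads were aligned with STAR 2.7.3 to GRCm38 (mm10), per the submitters' processing notes; the counting program, annotation and use of strand are not given in the sources used here. Dividing by the smallest step gave whole reads (within 0.01) for 100% of values; for control 1 the step was 1.01, a weaker sign. Gene names turned into dates (27) held 0.143% of reads and were kept.

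Because the values are normalized, limma 3.58.1 (R 4.3.3), with trend and robust variance, was run on log2(value + 1) for genes that reached 10 normalized counts in 3 or more libraries, with Benjamini-Hochberg adjustment. The size of changes of low genes depends on the pseudocount: Ifng stood at 6.31 with 0.5, 5.96 with 1 and 4.87 with 5. For Ifng and Ubd the limma values were larger than those of edgeR and DESeq2. The same held, by less, for Psmb8 (3.00 against 2.70 and 2.73), Psmb9 (2.95 against 2.66 and 2.69) and Psmb10 (2.22 against 2.06 and 2.08). For Psme1 the values were 1.07 against 1.07 and 1.08, and for Psme2 1.54 against 1.53 and 1.54. Alternatives were edgeR 4.0.16 and DESeq2 1.42.0 on recovered reads, other pseudocounts, no filter, other scalings, a replicate block and leaving out each library. On simulated counts for 15069 genes, limma recovered 54.9% of 195 changed genes (7.69% at a log2 change of 1, 78.5% at 2 or 3), and 6.14% of its calls were wrong. These shares depend on how many genes were changed and by how much, so they describe the simulated setting only. Nothing in the labels says that the samples of a group differ in litter or preparation date, so p-values measure the spread between these samples. The members and lists were chosen with earlier results of these data known. Members and listed genes could be named; values in every library are given for the inducible and constitutive catalytic members, other activators, tissue-restricted members and those called or with groups apart, and the extremes of each class are named. Psma5, Psmg1, Psmg4 and Pomp were given in full after their values were seen. A gene of the interferon list is not reported here and was left out of its counts. Promoters are from RefSeq.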

Additional observations from a re-analysis of the deposited data

Results flagged for a closer look

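In 3 cases 1 control lay far from the other 3 by Dixon's gap ratio, the gap to the nearest library divided by the range of the group (critical value 0.829). Psmb10 was highest in control 2, with a ratio of 0.88. Psmd4, a ubiquitin receptor of the regulatory particle, was highest in control 4, with a ratio of 0.856. Psmf1 was lowest in control 2, with a ratio of 0.837. The check covered the controls for 52 measures, the 47 tested members and the 5 ratios built from some of them. Chance gives about 2.6 such cases over 52 independent measures, and these are not independent.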

How the results depend on the processing

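Psmb8, Psmb9 and Psmb10 kept their direction and their call under all 15 alternatives, and no member was called lower under any. Members called higher numbered 3 to 5 when 1 library was left out (3 without control 3 or without ICI-myocarditis 1), against 5 with all 7. Genes called over the whole table numbered 986 (without ICI-myocarditis 3) to 3340 (without control 2) when 1 library was left out, against 2397. With DESeq2, 3441 genes were called. On simulated counts 27.1% of the DESeq2 calls were wrong. That simulation changed 195 of 15069 genes, far fewer than were called here, so this share does not carry over to the 3441. The 5 ratios kept their sign in every alternative, with log2 differences when 1 library was left out of 2.88 to 4.01 (Psmb8 over Psmb5), 2.71 to 3.65 (Psmb9 over Psmb6), 1.88 to 2.84 (Psmb10 over Psmb7), 0.76 to 1.22 (Psme1 over Psme3) and 1.12 to 1.81 (Psme2 over Psme3). Some values near 0 changed sign, and the cause was not tested. With total-read scaling Psmb6 stood at 0.071, Psmb7 at 0.13 and Psmc3 at 0.054, all below the shift of 0.16 of all genes. Leaving out 1 library gave -0.34 to 0.15 for Psmb6, -0.37 to 0.25 for Psmb7, -0.37 to 0.10 for Psmc3, -0.094 to 0.16 for Psme3, -0.051 to 0.52 for Psma8, -0.25 to 0.40 for Psma6 and -0.27 to 0.20 for Psmb4. Replicate numbers did not pair the samples (correlations of same-numbered deviations -0.27, -0.21 and -0.08). With the replicate number as a block, 1780 genes were called. Psme1 then stood at 1.21 (limma adjusted p = 0.0501), Psmb6 at 0.15, Psmb7 at 0.25 and Psmc3 at 0.080. Only controls had a replicate number 4, so control 4 did not enter these fold changes. They equal those of the fit without control 4, and the 15 alternatives are not 15 separate estimates. Psmb11 was too low to be tested, and Psma8 was low, with 7.40 to 23.2 normalized counts and a standard error of 0.51. The part of sequencing depth in these low values was not tested.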

Other observations

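Markers of tissues known for their own proteasome forms or for high proteasome use were read as follows. Of 4 thymus cortex markers, which include the proteasome gene Psmb11, 1 was abundant enough to test and 0 were called, with summed levels of 36.3 to 71.5 normalized counts in controls and 51.5 to 68.6 in ICI-myocarditis; Foxn1, the thymus epithelial regulator, was at 0 in all 7 libraries. Prss16, a thymus protease too low to test, had 0 to 1.25 normalized counts in controls and 4.35 to 8.19 in ICI-myocarditis. Of 4 testis markers, which include the proteasome gene Psma8, 2 were tested and 0 called. Prm1, a sperm protamine too low to test, had 0 to 4.93 normalized counts in controls and 6.88 to 13.8 in ICI-myocarditis. Of 4 plasma cell markers 1 was called higher, Jchain, which joins secreted antibodies (log2 fold change 5.15, limma adjusted p = 0.00251), while Xbp1, the regulator of the secretory programme, stood at 0.34 (adjusted p = 0.347). Endothelial markers were called lower in 3 of 5 cases (Emcn, Erg and Kdr; median -1.16), and 1 of 4 fibroblast markers, Col1a1, was called higher (1.87, adjusted p = 0.0185; called in 11 of 15 alternatives). Among all genes tested 11.7% were called higher and 4.00% lower.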
